A study of Arabidopsis thaliana with 8 samples.

Results

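The 43 genes described here are annotated with the Gene Ontology term kinase activity, and their transcripts were measured in shoots of Arabidopsis seedlings grown with or without a brassinosteroid hormone. The authors' deposited tables name 733 probe sets of the ATH1 expression array, 692 of them under 1 locus, and the genes were found among these. A probe set was taken where its molecular function entry contained kinase activity and its cellular component entry did not contain chloroplast. The term stood in the entries of 56 probe sets, of which 7 were annotated to the chloroplast, 5 matched several loci and 1 (AT1G21250) was left out by the rule. Within the 43 genes, 17 encode receptor-like kinases, 12 are other protein kinases, 9 are annotated as kinases of sugars, lipids, nucleosides or related metabolites, and 5 carry the term although they are lectin, leucine-rich repeat, phosphotransfer or cyclin proteins. None of the 43 probe sets has a name ending in the array maker's mark for probes shared between genes (_s_at or _x_at).

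Kinases move a phosphate from ATP to another molecule. Plant receptor-like kinases sit in the plasma membrane, sense a ligand or the cell wall outside and pass the signal to cytoplasmic kinases, MAP kinase cascades and calcium-dependent kinases inside. Brassinosteroids are themselves perceived by such a receptor, BRI1, with its co-receptor BAK1, and their signal is held back by the GSK3-type kinase BIN2. Kinases of metabolites prime sugars, lipids and nucleosides for further steps of metabolism.

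The seedlings were of the Columbia ecotype and had grown for 21 days on medium with 1 µM 24-epibrassinolide (EBR, a synthetic brassinosteroid) or with 0.01% ethanol as control. Tissue above the medium was taken without stress (0 h), after 1 h or 3 h at 43°C, and 6 h into recovery at 22°C after the longer heat. Each of the 8 groups has 1 deposited sample, which per the labels stands for 3 biological replicate arrays, and at least 30 seedlings were pooled per treatment. No shoot, root or guard cell marker from the fixed lists is among the named probe sets (0 of 4, 0 of 6 and 0 of 2), so the labelled tissue could not be checked against markers, and 1 of 3 flower markers (PI) is listed. Because shoots were measured whole, fewer cells of a type and less RNA per cell cannot be told apart.

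Values come from 2 deposited sources. The value table holds, for 22746 probe sets, a linear ratio that was read as relative to the control of the same stage, from which a log2 ratio of EBR to control was computed. The authors' deposited tables hold mean log2 values and mean signal intensity per condition at 0 h, 1 h and 3 h, but no recovery stage and no error. Per the file headers, a probe set was listed if its treatment term in a 2-way analysis of variance had a corrected p up to 0.05 and a fold of at least 2 was reached. The kinase genes were thus drawn from probe sets already selected for an EBR effect on these samples, so the size and number of their EBR effects are not independent evidence. A ratio at 1 stage has no replicate in the value table and carries no p-value. The 4 stage ratios were tested together against 0 with limma over all 22746 probe sets, and rose or fell below refers to a Benjamini-Hochberg adjusted p of at most 0.05 in that test. These p-values measure how well the 4 stages agree, not the spread between seedling batches.

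Over the 4 stages 17 kinase genes rose with EBR, 10 fell and 16 did not pass. The 39.5% that rose compare with 5.06% of all probe sets and 44.7% of the other 649 named probe sets of the authors' tables. The 23.3% that fell compare with 5.91% and 25.4%. Both shares lie near those of the other named probe sets, and no difference between them was tested. The ratio was above 0 at all 4 stages in 21 genes and below 0 at all 4 in 13, and the sign was mixed in 9. No share of other probe sets is given for these signs, so they are not a result about the kinase genes. The count depended on single stages. Without the 0 h ratio 9 rose and 7 fell, without 1 h 7 and 4, without 3 h 10 and 7, and without recovery 24 and 12. The counts over all probe sets moved as well, from 1151 that rose and 1344 that fell with all 4 stages. Without 0 h they were 438 and 349, and without 1 h 262 and 186. They were 429 and 403 without 3 h, and 1648 and 1636 without recovery.

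At single stages few kinase genes were 2-fold apart in the value table. At 0 h, 3 were at least 2-fold higher with EBR (6.98%, against 0.95% of all probe sets and 17.3% of the other named ones) and 0 were lower (against 0.123% and 2.47%). After 1 h, 5 were higher (against 0.677% and 13.4%) and 1 was lower (against 0.123% and 2%). After 3 h, 4 were higher (against 0.818% and 14.5%) and 3 lower (against 0.154% and 2.62%). At recovery 0 were higher (against 0.585% and 8.32%) and 1 was lower (against 0.365% and 2.77%). The median log2 ratio of the 43 genes was 0.30, 0.34, 0.27 and 0.02 in that order, against 0.33, 0.35, 0.32 and 0.12 for the other named probe sets.

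**Figure D1:**
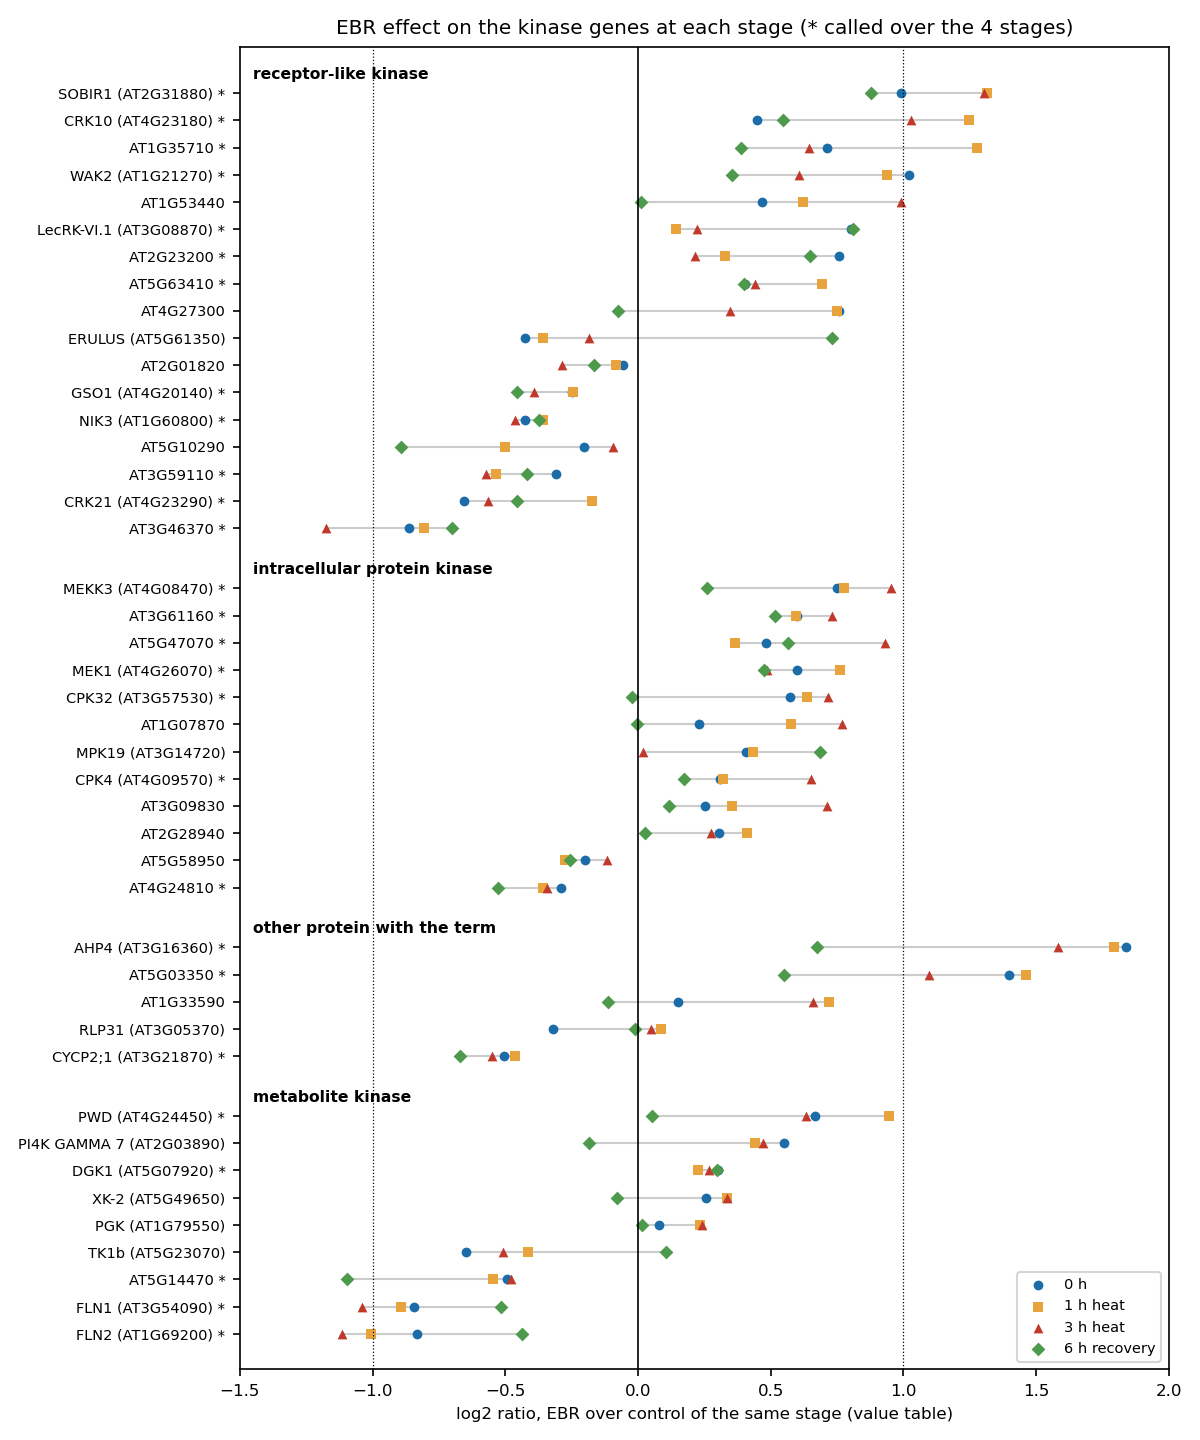
Each row is 1 kinase gene, grouped by role, and the 4 symbols give its log2 ratio of EBR over control at 0 h, after 1 h and 3 h of heat and at 6 h of recovery (horizontal axis, value table). Grey bars span the 4 values, dotted lines mark 2-fold, and a star marks genes called over the 4 stages. AHP4 and AT5G03350 lie farthest to the right, and the recovery symbol lies left of the others in many rows with positive values.

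Of the 17 receptor-like kinase genes 7 rose, 5 fell and 5 were not called. SOBIR1 (AT2G31880), a leucine-rich repeat kinase that works as the signalling partner of receptor-like proteins in immunity, had log2 ratios of 0.99 at 0 h, 1.32 after 1 h, 1.30 after 3 h and 0.88 at recovery. All 4 values were high for this set, and its mean rose by 1.12 ± 0.22 (SD, n = 4 stages; limma adjusted p = 0.00143). In the authors' deposited table its signal at 0 h was 226 in control and 493 with EBR. It was the receptor kinase gene with the highest mean, and its call was kept whichever stage was left out.

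CRK10 (AT4G23180), a cysteine-rich receptor-like kinase, had ratios of 0.45 at 0 h, 1.25 after 1 h, 1.03 after 3 h and 0.55 at recovery. It was highest during heat, and rose by 0.82 ± 0.38 (SD, n = 4 stages; limma adjusted p = 0.0112). AT1G35710, of the leucine-rich repeat receptor kinases, had 0.71 at 0 h, 1.28 after 1 h, 0.65 after 3 h and 0.39 at recovery and rose by 0.76 ± 0.37 (SD, n = 4 stages; limma adjusted p = 0.0132). Its signal in the authors' deposited table was very low, 4.72 in control and 10.5 with EBR at 0 h, where the lowest signal of any probe set in the same-stage tables was 3.55 and the median 75.1. WAK2 (AT1G21270), a wall-associated kinase that binds pectin, had 1.02 at 0 h, 0.94 after 1 h, 0.61 after 3 h and 0.36 at recovery and rose by 0.73 ± 0.31 (SD, n = 4 stages; limma adjusted p = 0.00927). For WAK2 the ratio became smaller from 0 h through heat to recovery, without a test of that order.

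Another pair had its higher ratios outside heat. LecRK-VI.1 (AT3G08870), an L-type lectin receptor kinase, had 0.80 at 0 h, 0.14 after 1 h, 0.22 after 3 h and 0.81 at recovery, and AT2G23200, a relative of the FERONIA receptor kinase, had 0.76 at 0 h, 0.33 after 1 h, 0.22 after 3 h and 0.65 at recovery. LecRK-VI.1 rose by 0.49 ± 0.36 (SD, n = 4 stages; limma adjusted p = 0.0465), and AT2G23200 by 0.49 ± 0.26 (SD, n = 4 stages; limma adjusted p = 0.0232). The signal of LecRK-VI.1 at 0 h was 6.5 in control and 16.5 with EBR in the authors' deposited table, so its control level was far below the median listed. AT5G63410, a leucine-rich repeat kinase gene, had 0.40 at 0 h, 0.70 after 1 h, 0.44 after 3 h and 0.40 at recovery and rose by 0.48 ± 0.14 (SD, n = 4 stages; limma adjusted p = 0.00895). Calls in this class were sensitive to single stages. That of LecRK-VI.1 was lost when any 1 stage was left out, that of AT2G23200 without 0 h or 1 h, that of CRK10 without 1 h or 3 h, that of AT1G35710 without 0 h or 3 h, and those of WAK2 and AT5G63410 without 1 h.

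The receptor kinase genes that fell had smaller changes, apart from AT3G46370. This leucine-rich repeat kinase gene had ratios of -0.86 at 0 h, -0.81 after 1 h, -1.17 after 3 h and -0.70 at recovery and fell by 0.89 ± 0.20 (SD, n = 4 stages; limma adjusted p = 0.00216), the lowest mean of all 43 genes. In the authors' deposited tables its signal was 48.8 in control and 15.6 with EBR at 0 h, and 42.8 in control and 14.6 with EBR after 3 h. Its control arrays varied most at 0 h, with an approximate SD of 0.53 on the log2 scale as read from the control column. The cysteine-rich kinase gene CRK21 (AT4G23290) had -0.66, -0.17, -0.57 and -0.46 in stage order and fell by 0.46 ± 0.21 (SD, n = 4 stages; limma adjusted p = 0.0182). CRK21 thus went the other way from its family member CRK10.

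AT3G59110 had -0.31, -0.53, -0.57 and -0.42 in stage order and fell by 0.46 ± 0.12 (SD, n = 4 stages; limma adjusted p = 0.00886). NIK3 (AT1G60800), of the NSP-interacting kinases, had -0.43, -0.36, -0.46 and -0.37 and fell by 0.41 ± 0.05 (SD, n = 4 stages; limma adjusted p = 0.00856). The 4 ratios of NIK3 were nearly equal. GSO1 (AT4G20140), a peptide receptor needed for an intact embryonic cuticle and for the root's diffusion barrier, had -0.25, -0.24, -0.39 and -0.45 in stage order and fell by 0.34 ± 0.10 (SD, n = 4 stages; limma adjusted p = 0.0218). The call of GSO1 was lost without 0 h, 1 h or 3 h, that of CRK21 without 0 h or 3 h, and those of NIK3 and AT3G59110 without 1 h. The call of AT3G46370 was kept in each case.

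Among the 5 receptor kinase genes that were not called, ERULUS (AT5G61350), a kinase of root hair growth in the FERONIA family, had ratios of -0.43 at 0 h, -0.36 after 1 h, -0.18 after 3 h and 0.73 at recovery. It was below control at the first 3 stages and above it at recovery. ERULUS was called below control without the recovery ratio. AT1G53440, of the leucine-rich repeat kinases, ran from 0.01 at recovery to 0.99 after 3 h, and AT4G27300, of the S-locus lectin kinases, from -0.07 at recovery to 0.76 at 0 h. Both lay near control at recovery, and both were called when that stage was left out. AT5G10290 lay between -0.89 and -0.10, and AT2G01820 between -0.29 and -0.05.

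Of the 12 intracellular protein kinase genes 6 rose, 1 fell and 5 were not called. Their median ratio was 0.36 at 0 h, 0.42 after 1 h, 0.68 after 3 h and 0.15 at recovery. MEKK3 (AT4G08470), a MAP kinase kinase kinase at the top of the cascade, had 0.75 at 0 h, 0.78 after 1 h, 0.95 after 3 h and 0.26 at recovery and rose by 0.69 ± 0.30 (SD, n = 4 stages; limma adjusted p = 0.0106). MEK1 (AT4G26070, also called MKK1), which acts below such kinases in stress and defence signalling, had 0.60 at 0 h, 0.76 after 1 h, 0.49 after 3 h and 0.48 at recovery and rose by 0.58 ± 0.13 (SD, n = 4 stages; limma adjusted p = 0.00486). MPK19 (AT3G14720), of the MAP kinases at the bottom of such cascades, had 0.41 at 0 h, 0.43 after 1 h, 0.02 after 3 h and 0.69 at recovery. It was not called (limma adjusted p = 0.0544). Whether these 3 genes act in 1 cascade was not tested. MPK19 was lowest after 3 h, where MEKK3 was highest.

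The shaggy-related kinase gene AT3G61160 belongs to the GSK3 family, like BIN2. Its ratios were 0.60 at 0 h, 0.60 after 1 h, 0.73 after 3 h and 0.52 at recovery, close together, and it rose by 0.61 ± 0.09 (SD, n = 4 stages; limma adjusted p = 0.00282). The calcium-dependent kinase genes CPK32 (AT3G57530) and CPK4 (AT4G09570) encode kinases that calcium switches on directly, and both are tied to abscisic acid signalling. CPK32 had 0.57 at 0 h, 0.64 after 1 h, 0.71 after 3 h and -0.02 at recovery and rose by 0.48 ± 0.34 (SD, n = 4 stages; limma adjusted p = 0.0443). CPK4 had 0.31 at 0 h, 0.32 after 1 h, 0.65 after 3 h and 0.17 at recovery and rose by 0.36 ± 0.20 (SD, n = 4 stages; limma adjusted p = 0.0373). Both were highest after 3 h and lowest at recovery.

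A further 4 genes encode receptor-like cytoplasmic kinases, which relay signals from receptors at the membrane. AT5G47070 had 0.48 at 0 h, 0.37 after 1 h, 0.93 after 3 h and 0.57 at recovery and rose by 0.59 ± 0.24 (SD, n = 4 stages; limma adjusted p = 0.0114). The ratios of AT1G07870 ran from 0.00 to 0.77, those of AT3G09830 from 0.12 to 0.71, and those of AT2G28940 from 0.03 to 0.41. Each was lowest at recovery. None of these 3 passed (limma adjusted p = 0.0866, 0.0577 and 0.0807), and all 3 were called without the recovery ratio. AT5G47070, AT1G07870 and AT3G09830 had their highest ratio after 3 h. AT4G24810 had -0.29, -0.36, -0.34 and -0.53 in stage order and fell by 0.38 ± 0.10 (SD, n = 4 stages; limma adjusted p = 0.0141). AT5G58950, which did not pass, averaged -0.21 ± 0.07. The calls of MEKK3, CPK32, CPK4 and AT4G24810 were lost without any 1 of 0 h, 1 h and 3 h, while those of AT3G61160, AT5G47070 and MEK1 were kept.

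The 2 highest means of the whole set belonged to AHP4 and AT5G03350, whose products are not known as kinases themselves. AHP4 (AT3G16360), of the histidine phosphotransfer proteins that carry phosphate between cytokinin receptors and response regulators, had ratios of 1.84 at 0 h, 1.79 after 1 h, 1.58 after 3 h and 0.67 at recovery. It rose by 1.47 ± 0.54 (SD, n = 4 stages; limma adjusted p = 0.0047), and the recovery value stood apart as the lowest. Its signal in the authors' deposited tables was 10.5 in control and 96.6 with EBR at 0 h, 9.46 in control and 66.0 with EBR after 1 h, and 10.8 in control and 34.0 with EBR after 3 h. Control levels were thus low and about level across these stages, while the EBR level became lower with heat.

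The legume lectin family gene AT5G03350 had 1.40 at 0 h, 1.46 after 1 h, 1.10 after 3 h and 0.55 at recovery and rose by 1.13 ± 0.42 (SD, n = 4 stages; limma adjusted p = 0.00531). Its signal was 12.1 in control and 128 with EBR at 0 h in the authors' deposited table, and its control arrays had an approximate SD of 0.55 after 1 h. CYCP2;1 (AT3G21870), a cyclin and so a partner of cyclin-dependent kinases, had -0.50 at 0 h, -0.46 after 1 h, -0.55 after 3 h and -0.67 at recovery and fell by 0.55 ± 0.09 (SD, n = 4 stages; limma adjusted p = 0.00425). Its 4 values lay close together, and the calls of AHP4, AT5G03350 and CYCP2;1 were kept whichever stage was left out. The leucine-rich repeat gene AT1G33590 ranged from -0.11 to 0.72, and the receptor-like protein gene RLP31 (AT3G05370) from -0.32 to 0.09. Neither was called over the 4 stages, and AT1G33590 was called without recovery.

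Of the 9 metabolite kinase genes 2 rose, 3 fell and 4 were not called. The genes with the lowest means were FLN1 (AT3G54090) and FLN2 (AT1G69200), fructokinase-like proteins known as parts of the transcription machinery of plastids. The cellular component entries of the authors' tables did not place them in the chloroplast. FLN1 had ratios of -0.85 at 0 h, -0.89 after 1 h, -1.04 after 3 h and -0.52 at recovery and fell by 0.82 ± 0.22 (SD, n = 4 stages; limma adjusted p = 0.00307). FLN2 had -0.83 at 0 h, -1.01 after 1 h, -1.12 after 3 h and -0.44 at recovery and fell by 0.85 ± 0.30 (SD, n = 4 stages; limma adjusted p = 0.00583). The pair was lowest after 3 h and nearest to control at recovery.

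Both FLN genes had high signals in the authors' deposited tables. At 0 h the signal of FLN1 was 900.3 in control and 442 with EBR, and that of FLN2 was 666 in control and 307 with EBR. After 3 h it was 794 in control and 384 with EBR for FLN1, and 333 in control and 142 with EBR for FLN2. The FLN2 level was therefore lower after heat in both arms, and EBR and control stayed about equally far apart on the log2 scale.

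AT5G14470, annotated as a galactokinase, had -0.50 at 0 h, -0.55 after 1 h, -0.48 after 3 h and -1.10 at recovery and fell by 0.65 ± 0.30 (SD, n = 4 stages; limma adjusted p = 0.0121). Unlike the FLN genes it was lowest at recovery, and its control arrays after 3 h had the largest approximate SD of any gene here at any stage, 0.72. PWD (AT4G24450, also called GWD2), of the water dikinases that add phosphate to glucans such as starch, had 0.67 at 0 h, 0.95 after 1 h, 0.63 after 3 h and 0.05 at recovery and rose by 0.57 ± 0.37 (SD, n = 4 stages; limma adjusted p = 0.0325). DGK1 (AT5G07920), a diacylglycerol kinase that makes phosphatidic acid, had 0.30 at 0 h, 0.23 after 1 h, 0.27 after 3 h and 0.30 at recovery and rose by 0.27 ± 0.03 (SD, n = 4 stages; limma adjusted p = 0.0285). The change of DGK1 was small and even over the stages.

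The genes not called in this class were near control or changed sign at recovery. TK1b (AT5G23070), a thymidine kinase of nucleotide salvage, lay between -0.65 at 0 h and 0.11 at recovery. PI4K GAMMA 7 (AT2G03890), annotated to phosphoinositide kinases, ran from -0.18 at recovery to 0.55 at 0 h, and XK-2 (AT5G49650), a xylulose kinase, from -0.08 at recovery to 0.34 after 1 h. These 3 were called when recovery was left out. PGK (AT1G79550), a phosphoglycerate kinase of glycolysis, had 0.08, 0.23, 0.24 and 0.02 in stage order, averaging 0.14 ± 0.11 (limma adjusted p = 0.242). The call of FLN1 was kept whichever stage was left out. Those of FLN2 and AT5G14470 were lost without 1 h, and those of PWD and DGK1 without any 1 of 0 h, 1 h and 3 h.

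The 2 deposited sources gave the EBR effect on different scales. For the kinase genes the authors' deposited log2 difference was larger in size than the value table's log2 ratio in 36 of 42 genes at 0 h, 35 of 42 after 1 h and 34 of 43 after 3 h. The sign was shared by 42, 40 and 41 of them. The median size was 0.71, 0.72 and 0.72 in the authors' deposited tables and 0.48, 0.50 and 0.55 in the value table. Over all named probe sets with both values the least squares slope of the first on the second was 1.35, 1.29 and 1.30, so the other named probe sets showed the gap too. The sources used here do not say how the 2 were processed differently.

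The gap was widest for AT5G03350, at 3.15, 3.05 and 2.88 in the authors' deposited table for the 3 stages against 1.40, 1.46 and 1.10 in the value table. Its control signal was low, at 12.1, 10.4 and 6.64 in stage order, where the median listed signal was 75.1. AHP4 had 2.69, 2.53 and 1.30 in the authors' deposited table. LecRK-VI.1 stood there at 1.30, 0.00 and 0.00, a difference before heat and none during it. ERULUS had -1.30, 0.02 and -0.08, likewise a difference only before heat in that table, where its signal was 18.0 in control and 7.16 with EBR. In the value table ERULUS lay at -0.43, -0.36 and -0.18.

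By the authors' deposited log2 columns 9 kinase genes were at least 2-fold higher and 5 lower at 0 h, 11 and 3 after 1 h, and 8 and 5 after 3 h. Among the other named probe sets of the table against the 0 h control, 30.7% were higher and 8.11% lower at 0 h, 24.2% and 7.15% after 1 h, and 26.6% and 7.31% after 3 h. Listing used this fold, so the counts describe the selection. Of the 43 genes 6 stand in all 3 same-stage tables (SOBIR1, AT3G46370, AHP4, AT5G03350, AT5G14470 and FLN2), 5 in 2 of them, 13 in 1, and 19 were listed only for a fold against the 0 h control. Just inside the line was MPK19 with a log2 difference of 1.00 at 0 h, and just outside it AT1G07870 with 0.998 after 1 h.

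**Figure D2:**
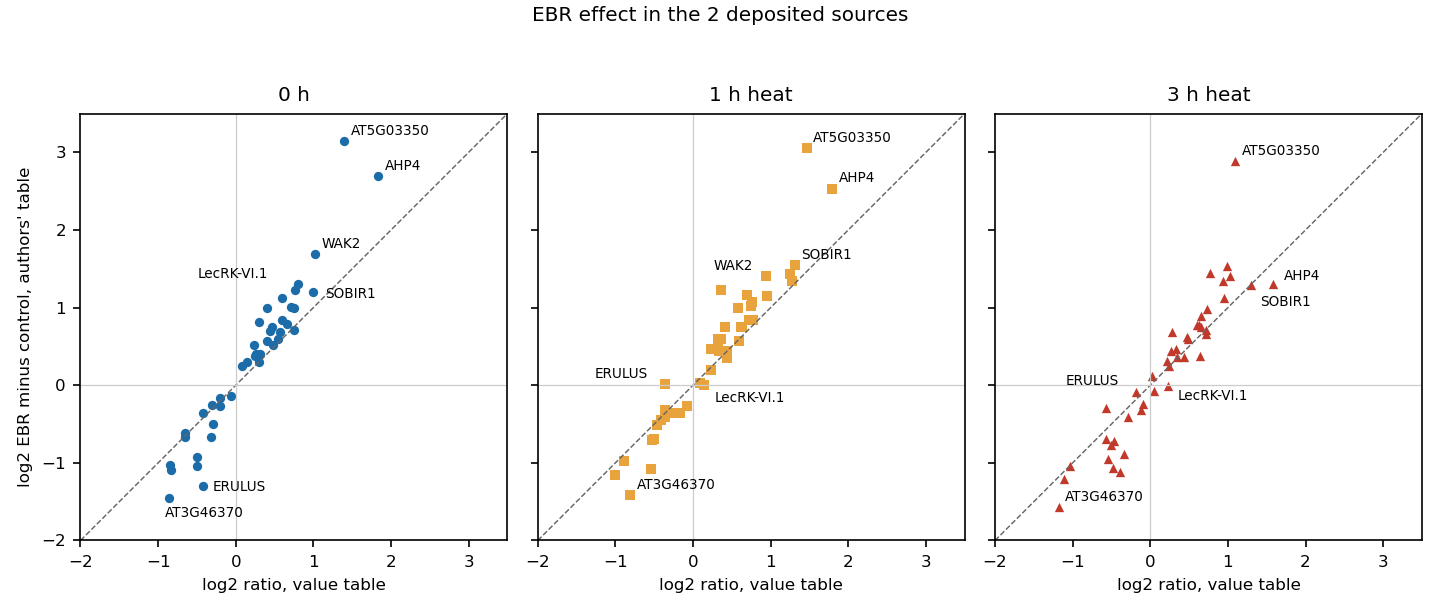
Each point is 1 kinase gene at 0 h, after 1 h or after 3 h of heat (left to right), with its log2 ratio of EBR over control in the value table (horizontal) against the log2 difference in the authors' deposited tables (vertical). The dashed line marks equal values. Most points lie farther from 0 on the vertical axis, and AT5G03350 lies farthest above the line.

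The authors' tables hold no recovery stage. At recovery 23 of the 27 kinase genes with a positive mean over the other 3 stages had a lower ratio than that mean (85.2%), and 82% of the 405 other named probe sets with a positive mean did so. Of the 16 genes with a negative mean 9 lay above it at recovery (56.2%), against 69.7% of 244. A shift at recovery against the sign of that mean was therefore common among the other named probe sets too, and no difference from them was tested. Such a shift need not end closer to control, as ERULUS went from a mean of -0.32 to 0.73. All these probe sets had been listed for values at the other 3 stages, and recovery played no part in the listing.

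Of the 27, 12 were within a log2 of 0.2 of control at recovery. CPK32 lay at -0.02, PWD at 0.05, AT1G53440 at 0.01 and AT1G07870 at 0.00. Among the 27, the highest ratios at recovery were those of SOBIR1 at 0.88, LecRK-VI.1 at 0.81, MPK19 at 0.69, AHP4 at 0.67 and AT2G23200 at 0.65. At the low end were AT5G14470 at -1.10 and AT5G10290 at -0.89. These lowest 2 were farther below control than at any other stage.

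The limma contrast of recovery against the other 3 stages called 2 of the 43 genes. ERULUS had a ratio 1.05 higher at recovery (SE 0.16; limma adjusted p = 0.0434), and AHP4 differed by -1.07 (SE 0.16; limma adjusted p = 0.0434). Over the whole array 0.374% of probe sets were called higher and 0.11% lower, and 0.924% and 1.23% of the other named ones. Recovery enters with 1 ratio, and the spread behind this test is that of the remaining stages. With each stage centred on its median the differences were 1.06 and -1.06, and neither gene was called (limma adjusted p = 0.0527 for ERULUS and 0.0509 for AHP4). With quantile normalization AHP4 differed by -0.95 and was not called (limma adjusted p = 0.0640). The approximate SD of the control arrays at recovery was 0.34 for ERULUS and 0.12 for AHP4. In 4 pairs of actin and GAPDH control probe sets, the log2 ratio of EBR to control at the 3' end minus that at the 5' end was -0.47 to -0.08 at recovery and 0.29 to 0.57 after 1 h, and the part of RNA quality in these results was not tested.

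**Figure D3:**
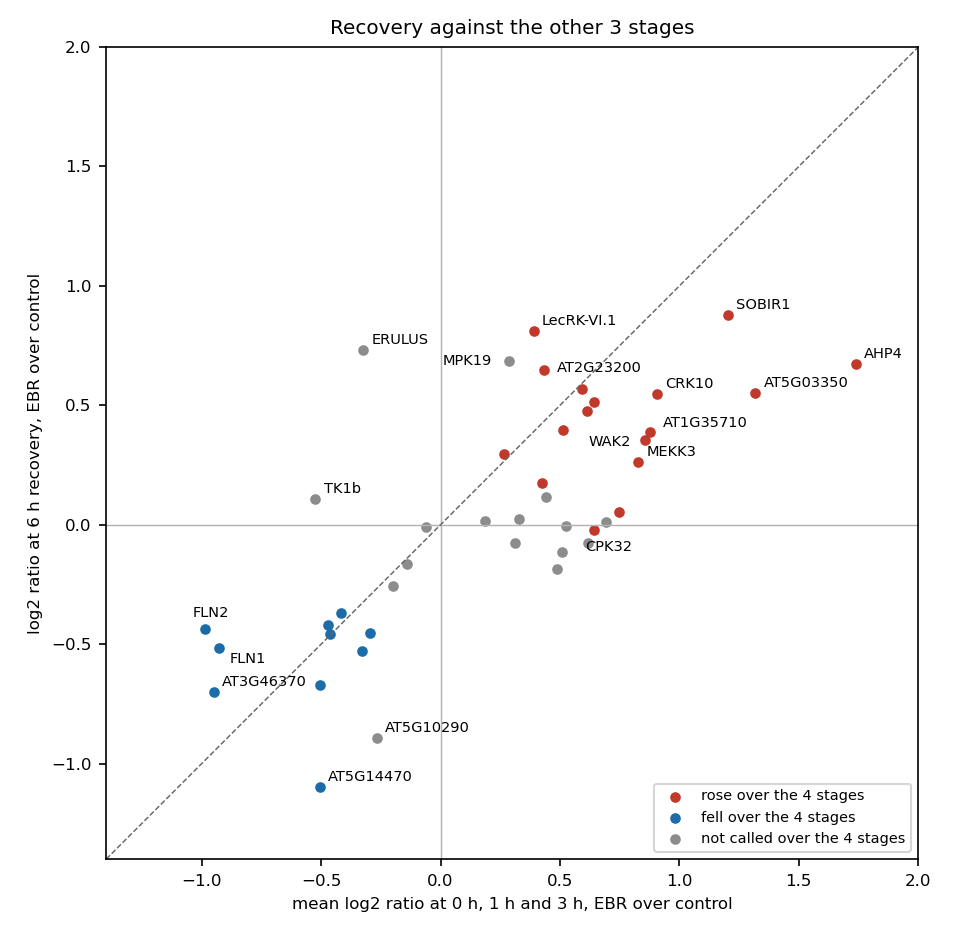
Each point is 1 kinase gene, with its mean log2 ratio of EBR over control at 0 h, 1 h and 3 h (horizontal) against its ratio at 6 h of recovery (vertical), coloured by its call over the 4 stages. The dashed line marks equal values. Most genes right of 0 lie below the line, ERULUS lies above it in the upper left part, and AHP4 lies farthest to the right.

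The effect of heat was taken from log2 condition means in the authors' deposited table for 42 of the genes (GSO1 is not in it). These means carry no error, and no test of heat was run on them. After 1 h in control shoots 3 genes were at least 2-fold higher and 9 lower than at 0 h (7.14% and 21.4%, against 12.1% and 20.3% of the other named probe sets). After 3 h the counts were 3 and 9 (against 10.7% and 22.3%). In EBR shoots they were 3 and 9 after 1 h (against 11.3% and 24.8%), and 6 and 14 after 3 h (against 14.9% and 26.7%). These shares were near or below those of the other named probe sets for higher values, and 33.3% were lower after 3 h with EBR. A fold against the 0 h control was itself a ground for listing, and 1 h and 3 h share the 0 h groups.

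PGK had the highest heat values of the set, 2.10 after 1 h and 2.16 after 3 h in control shoots, and 2.04 and 2.16 in EBR shoots. The arms were alike for this glycolytic gene. CPK32 had changes of 1.29 after 1 h and 1.49 after 3 h in control shoots, and 1.35 and 1.52 in EBR shoots. AT1G07870 had 1.42 after 1 h and 0.97 after 3 h in control shoots, and 1.91 and 1.90 in EBR shoots, so the cytoplasmic kinase gene went further up in EBR shoots. MEK1 had 0.66 after 1 h and 1.05 after 3 h in control shoots, and 0.89 and 0.79 in EBR shoots, and AT3G09830 had 0.64 after 1 h and 0.90 after 3 h in control shoots, and 0.87 and 1.19 in EBR shoots. Other intracellular kinase genes went the other way, as MPK19 had -0.77 after 1 h and -0.88 after 3 h in control shoots, and -1.41 and -1.77 in EBR shoots. AT5G47070, given below, was lower in heat as well. Of the 12 intracellular kinase genes, 7 were above their 0 h level after 1 h and 8 after 3 h in either arm.

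Of the 16 receptor kinase genes with a value, 3 were above their 0 h level after 1 h and 6 after 3 h in control shoots, and 5 and 3 in EBR shoots. Among the other named probe sets 42.6% and 43.9% were above it in control shoots, and 40.9% and 42% in EBR shoots. At least 2-fold lower were 5 after 1 h and 3 after 3 h in control shoots, and 5 and 6 in EBR shoots. The 1 value at least 2-fold higher was that of AT1G53440, which had 0.79 after 1 h and 0.53 after 3 h in control shoots, and 0.79 and 1.31 in EBR shoots. AT5G63410 had -2.05 after 1 h and -1.59 after 3 h in control shoots, and -1.46 and -1.80 in EBR shoots. AT2G23200 had -1.71 after 1 h and -1.41 after 3 h in control shoots, and -2.34 and -2.33 in EBR shoots, lower values with EBR. In control shoots AT5G63410 was the lowest of the 42 genes after 1 h and RLP31 after 3 h. RLP31 had -1.88 after 1 h and -1.83 after 3 h in control shoots, and -1.18 and -1.23 in EBR shoots. TK1b and NIK3 were lower too, with -1.32 after 1 h and -1.10 after 3 h in control shoots, and -1.15 and -1.25 in EBR shoots for TK1b, and -1.07 after 1 h and -0.86 after 3 h in control shoots, and -1.03 and -1.21 in EBR shoots for NIK3. The sign of the heat change was shared by both arms in 37 of 42 genes after 1 h and 38 of 42 after 3 h.

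The difference between the arms in a heat change equals the change of the EBR effect since 0 h in the same columns, so it is no separate evidence. Differences of at least 1 on the log2 scale were found in 2 genes after 1 h and 3 genes after 3 h. For ERULUS the heat change was -1.30 after 1 h and -1.23 after 3 h in control shoots, and 0.02 and 0.00 in EBR shoots, for LecRK-VI.1 -0.03 after 1 h and 0.01 after 3 h in control shoots, and -1.33 and -1.29 in EBR shoots, and for AHP4 -0.09 after 1 h and 0.08 after 3 h in control shoots, and -0.25 and -1.31 in EBR shoots. ERULUS was lower with heat in control shoots alone, whereas LecRK-VI.1 was lower in EBR shoots alone and AHP4 in EBR shoots after 3 h. The low group at 0 h had a signal of 7.16 for ERULUS, 6.5 for LecRK-VI.1 and 10.5 for AHP4, far below the median listed signal, and the sources used here do not say whether these levels were above background. CRK10 had 0.20 after 1 h and 0.01 after 3 h in control shoots, and 0.93 and 0.71 in EBR shoots, and AT5G47070 had -0.73 after 1 h and -1.19 after 3 h in control shoots, and -0.03 and -0.36 in EBR shoots. By these columns both were thus higher relative to 0 h with EBR than in control, by 0.70 and 0.82 after 3 h. In the value table the ratios of CRK10 were also higher in heat, at 0.45, 1.25 and 1.03 in stage order. Those of AT5G47070 were 0.48, 0.37 and 0.93, so lower after 1 h than at 0 h. WAK2 had -0.05 after 1 h and -0.02 after 3 h in control shoots, and -0.34 and -0.94 in EBR shoots. No difference between arms was tested.

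**Figure D4:**
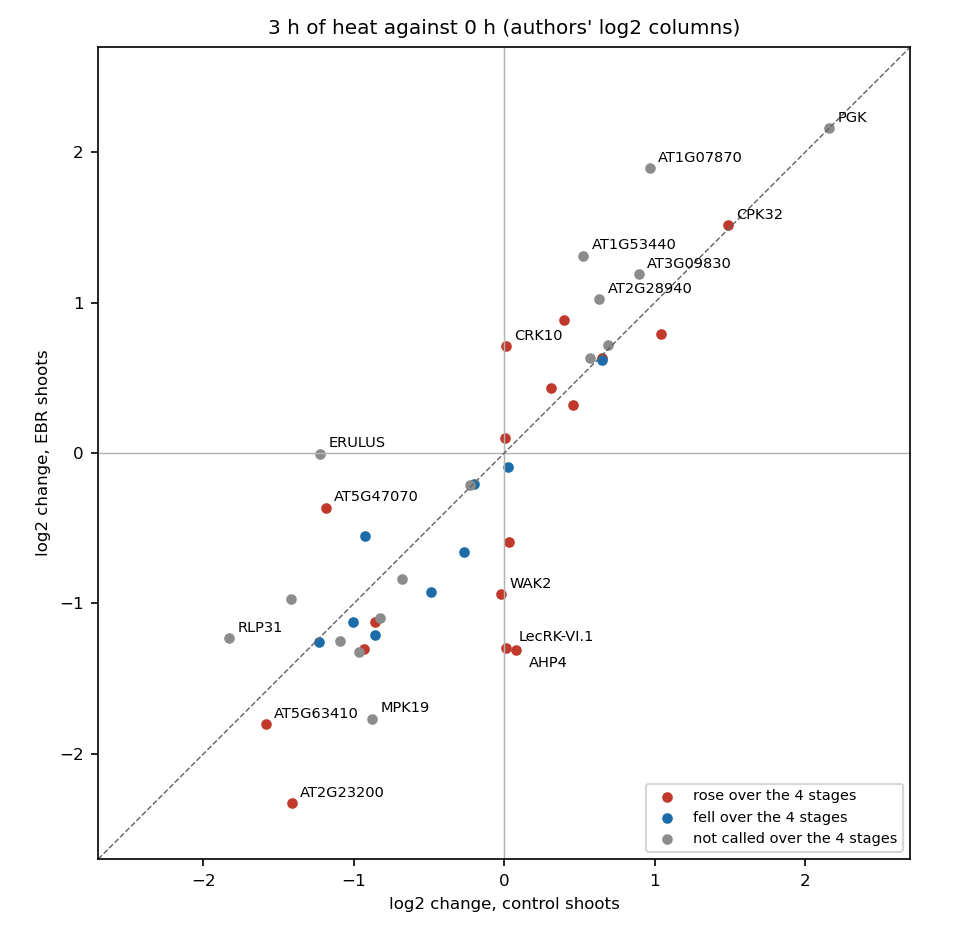
Each point is 1 of 42 kinase genes, with its log2 change from 0 h to 3 h of heat in control shoots (horizontal) against that in EBR shoots (vertical), from the authors' deposited log2 means, coloured by the EBR call over the 4 stages. The dashed line marks equal changes. PGK and CPK32 lie on the line at the upper right, and ERULUS, LecRK-VI.1 and AHP4 lie more than 1 unit from it.

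Other kinases of the same pathways were counted from lists of 112 loci, which were chosen with earlier results of these data known. Only 9 of them are named in the authors' tables under 1 locus, and 8 are among the 43 genes, of which 7 rose and 1 fell. Of the 35 kinase genes outside the lists 10 rose and 9 fell. Of the other named probe sets 44.7% rose and 25.4% fell, and of all probe sets 5.06% and 5.91%. No difference was tested, and the split by list is not independent evidence. The lists do not hold MEKK3, MPK19 or 8 of the 9 metabolite kinase genes described above. None of 12 receptor and GSK3 kinases of brassinosteroid signalling, BRI1, BAK1 and BIN2 included, is among the named probe sets, nor is any of 9 CBL-interacting kinases, 5 SnRK kinases, 6 histidine kinases, 7 cell cycle kinases or 3 kinases of metabolic enzymes. The named members were WAK2 of 6 wall-associated kinases, CRK10 and CRK21 of 17 cysteine-rich kinases, SOBIR1 of 10 immune receptor kinases and MEK1 of 12 MAP kinase cascade genes. CPK4 and CPK32 were the members of 11 calcium-dependent kinases, with CPK28 listed but annotated to the chloroplast, and DGK1 the member of 14 metabolite kinases. The EBR effect of a gene that is not named in the tables is not known here.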

How the data were processed

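Shoot RNA of 8 groups was hybridised to the ATH1 array, per the labels, and MAS5 and GCRMA are named, per the submitters' processing notes, with neither version nor role. The deposited value table holds a linear ratio per probe set and sample. No control column exceeds 1, so the ratio was read as relative to the control of the same stage, which is an inference. The sources used here do not say how the 3 replicate arrays became 1 value. The authors' deposited tables hold, per the file headers, folds, the mean intensity of each condition and its normalized log2 value, for probe sets that passed a 2-way analysis of variance. All 4308 listed fold values matched the difference of the log2 columns within 0.01. The log2 columns are relative to a baseline per probe set, so they were used only for differences within a gene.

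At each stage a log2 ratio of EBR to control was computed, without the 11 control probe sets of the array. The limma test (version 3.58.1, R 4.3.3) fitted the 4 stage ratios against 0, and recovery against the other 3, with Benjamini-Hochberg adjustment over 22746 probe sets at 0.05, and was tested on simulated data. An approximate SD of the control arrays was read from the control columns, taken as geometric over arithmetic mean of 3 arrays, which is an inference too. Symbols come from the TAIR10.1 RefSeq table, where all 692 loci matched. ERULUS and LecRK-VI.1 are its synonyms. No coordinates are given because the files name no genome build, and no sequences were used here. By rule, values at every stage are given for up to 30 genes, first those called or 2-fold apart at any stage (28), then MPK19 and PGK for their role classes. Members, lists and tests were chosen with earlier results of these data known. Alternatives were the EBR column alone, median centring, quantile normalization, robust variances, a minimum of 0.95 for control columns, a fold of 1.5, the authors' log2 columns, and leaving out each stage. The number of arrays limits the precision.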

Additional observations from a re-analysis of the deposited data

Results flagged for a closer look

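For 2 genes the result stood out because the EBR effect at recovery differed from that at the other 3 stages by the limma contrast. The log2 ratio of ERULUS (AT5G61350) was 1.05 higher at recovery than the mean of the other stages, and that of AHP4 (AT3G16360) differed by -1.07, both with a limma adjusted p of 0.0434. With each stage centred on its median the differences were 1.06 and -1.06 and both calls were lost (limma adjusted p = 0.0527 and 0.0509). With quantile normalization AHP4 differed by -0.95 and its call was lost (limma adjusted p = 0.0640). For ERULUS the ratio was above 0 at 1 of 4 stages, and for AHP4 at 4 of 4. The values behind the contrast differed between the 2 sources. In the authors' deposited columns, which lack recovery, ERULUS had -1.30 at 0 h, 0.02 after 1 h and -0.08 after 3 h. The value table gave it -0.43, -0.36 and -0.18. AHP4 had 2.69, 2.53 and 1.30 in the authors' deposited columns, against 1.84, 1.79 and 1.58 in the value table. Both genes had been listed for values at the other 3 stages, so the contrast is not independent of the listing. At 0 h the signal of ERULUS was 18.0 in control and 7.16 with EBR. That of AHP4 was 10.5 in control and 96.6 with EBR, where the median listed signal was 75.1. Each group has 1 deposited sample, so no sample could be set against others of its group.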

How the results depend on the processing

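When 1 stage ratio was left out, 7 to 24 kinase genes rose over the 4 stages and 4 to 12 fell, against 17 and 10. Over all probe sets 262 to 1648 rose and 186 to 1636 fell, against 1151 and 1344. Under the EBR column alone, median centring, quantile normalization, robust variances and the minimum for control columns the counts of kinase genes stayed within 1.5 times. CPK32 was not called with the EBR column alone and LecRK-VI.1 not with quantile normalization. Calls were gained too. MPK19 was called with median centring (limma adjusted p = 0.0461), with the minimum for control columns (limma adjusted p = 0.0445) and without 3 h (limma adjusted p = 0.0431). With that minimum AT1G53440 and AT3G09830 were called as well (limma adjusted p = 0.0419 and 0.0481). With 1 stage left out, the mean ratio of ERULUS ranged from -0.32 to 0.062 against -0.06 with all 4, above 0 without 0 h or 1 h, and that of RLP31 from -0.093 to 0.042 against -0.05, above 0 without 0 h. For recovery against the rest, median centring left 0 genes higher and 0 lower by limma and quantile normalization 0 lower, against 1 and 1. At an unadjusted limma p of 0.05, 4 genes were higher and 14 lower in the reported fit, with median centring and with quantile normalization. No share of all probe sets at that p is given here, so these counts are not a result about the kinase genes. The kinase genes had also been listed for values at the other 3 stages. At single stages, a fold of 1.5 in place of 2 gave 12 genes higher and 5 lower at 0 h, 15 and 3 after 1 h, 16 higher after 3 h, and 6 and 4 at recovery. The authors' deposited log2 columns gave 9 and 5 at 0 h, 11 and 3 after 1 h, and 8 and 5 after 3 h. Median centring left 0 lower after 1 h, and quantile normalization 0 lower at recovery. For heat, a fold of 1.5 gave 7 higher and 15 lower after 1 h and 9 and 17 after 3 h in control shoots, and 10 and 15 after 1 h and 13 higher after 3 h in EBR shoots. No share of other probe sets at a fold of 1.5 is given here, for single stages or for heat. The counts at that fold are therefore not a result about the kinase genes. A filter on the height of the log2 columns was not run because they hold no level. Log2 changes with heat from mean intensity, possible for 7 or 8 genes, differed by at most 0.30 from the log2 columns. Where calls changed, the cause was not tested, and a fit with a stage left out also rests on fewer ratios. No paired analysis was possible because each group has 1 deposited sample and the replicate arrays are not separate columns, so no replicate number could serve as a block. The stage ratios already set EBR against the control of the same stage.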
